A study of Mus musculus with 4 samples.

Results

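Transcripts of the enzymes that carry glucose through glycolysis, the pentose phosphate pathway and the TCA cycle were followed in N-myc-driven B-cell leukaemia with and without Anp32b. The set was named as 39 gene symbols, chosen with earlier results of these data known. Of these, 39 of 39 were found among the 16613 symbols of the files. RNA-seq had been done on GFP+ bone marrow cells of recipient mice that were given B220+ marrow cells transduced with N-myc. The donor cells were Anp32b-/- (knockout, 2 libraries) or Anp32b+/+ (wild type, 2 libraries), the strain was C57BL/6 throughout, and the labels give no age, no time after transfer and no pooling. Cells of both genotypes carried the N-myc vector, so no library without N-myc served as a control, and the design holds no bone marrow without leukaemia. Nothing in the labels ties the libraries to separate mice, and a p-value here speaks only of how far these libraries differ, which may be a technical spread.

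Glycolysis splits glucose to pyruvate in the cytosol, lactate dehydrogenase turns pyruvate into lactate, and monocarboxylate transporters carry lactate out of the cell. The pentose phosphate pathway branches off at glucose 6-phosphate and makes NADPH and ribose 5-phosphate, while pyruvate dehydrogenase feeds pyruvate into the mitochondrial TCA cycle. Many of the glycolytic genes are known targets of the MYC family and of the hypoxia factor HIF-1, and rapidly dividing lymphoid blasts are known for high glycolytic flux.

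The libraries held 19581575 and 19605800 reads for knockout and 19692505 and 19758671 for wild type. Anp32b itself was at 74.4 and 70.6 CPM (read counts scaled to library size with edgeR's TMM factors) in the knockout libraries, against 774 and 853 CPM in the wild-type libraries, the direction the genotype labels give. The 10 listed B cell markers summed to 5356 and 5397 CPM in knockout and to 5815 and 5749 CPM in wild type. Of them Cd22 was called higher (log2 fold change 1.00), 4 were called lower, Ebf1 (-0.52), Vpreb1 (-0.37), Igll1 (-0.37) and Blnk (-0.28), and 5 were not called (edgeR). Neutrophil markers, 14 of 14 detected and none at 0 in all libraries, summed to 127 and 127 CPM in knockout and to 633 and 645 CPM in wild type. The 4 listed Y-linked genes summed to 42.5 and 41.7 CPM in knockout and to 156 and 173 CPM in wild type. In bulk RNA, fewer cells of a type and less RNA per cell cannot be told apart.

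The enzymes of glucose metabolism moved little between the genotypes, about as much as all tested genes did. The median absolute log2 fold change was 0.127 in the tested members and 0.137 in all tested genes. Of the 38 tested members 21 (55.3%) had a positive and 17 a negative log2 fold change, and those that passed the test moved mostly upwards. In the knockout libraries 7 members rose: the glucose transporter gene Slc2a1, the glycolytic genes Gpi1, Aldoa and Eno1, the lactate dehydrogenase gene Ldha, the pentose phosphate gene G6pdx and the malate dehydrogenase gene Mdh2. Their rises ran from 12.5% for Mdh2 to 22.2% for Slc2a1. Only Hk3, a hexokinase gene of myeloid cells, fell in the test as run. Of the 39 members, 38 passed the filter on low counts and Eno2 did not. The 7 that rose were 18.4% of the 38 tested, where 10.9% of all 12123 tested genes were called higher by edgeR's quasi-likelihood test at an adjusted p under 0.05. The 1 that fell was 2.63% of the tested members, where 12.6% of all tested genes were called lower. Over both directions 21.1% of the members and 23.6% of all tested genes were called. The members' median log2 fold change was 0.03, and that over all tested genes was 0.0021, though the members' median turned to -0.0036 with upper-quartile normalization. A change beyond 1.5-fold in either direction was found in 4 members (10.5%, called or not) and in 12.3% of all tested genes. The knockout and wild-type libraries did not overlap for 30 of the 38 tested members (78.9%), where 60.5% of all tested genes did not overlap. Of these members 18 (47.4%) lay higher in knockout and 12 (31.6%) lower, where 30% and 30.5% of all tested genes did. Because the members were chosen with earlier results of these data known, these shares are a description only.

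The 7 rises kept their sign in all 77 values of 11 other settings (7 members each), with log2 fold changes from 0.12 to 0.31. These settings refit the same libraries, in whole or in part, and the 7 were picked there as called and without overlap. The kept sign was therefore likely from the start and is no separate support. None of the 7 was called without knockout replicate 1 or without knockout replicate 2 (edgeR, 0 members higher in each), where 8 and 5 members were higher at an unadjusted p under 0.05. A lone knockout library is assumed to vary like the other group, and the error then comes from the wild-type pair, whose replicates differed more than those of the knockout pair. The number of members called lower was 4 with upper-quartile normalization and 3 with a filter of 10 CPM in 2 libraries. Over all genes these settings called 1767 of 12123 and 1074 of 8576 lower, so the member counts alone say nothing particular to the set. The neutrophil and Y-linked genes given above fell in the same knockout libraries, and their part in these changes was not tested.

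**Figure D1:**
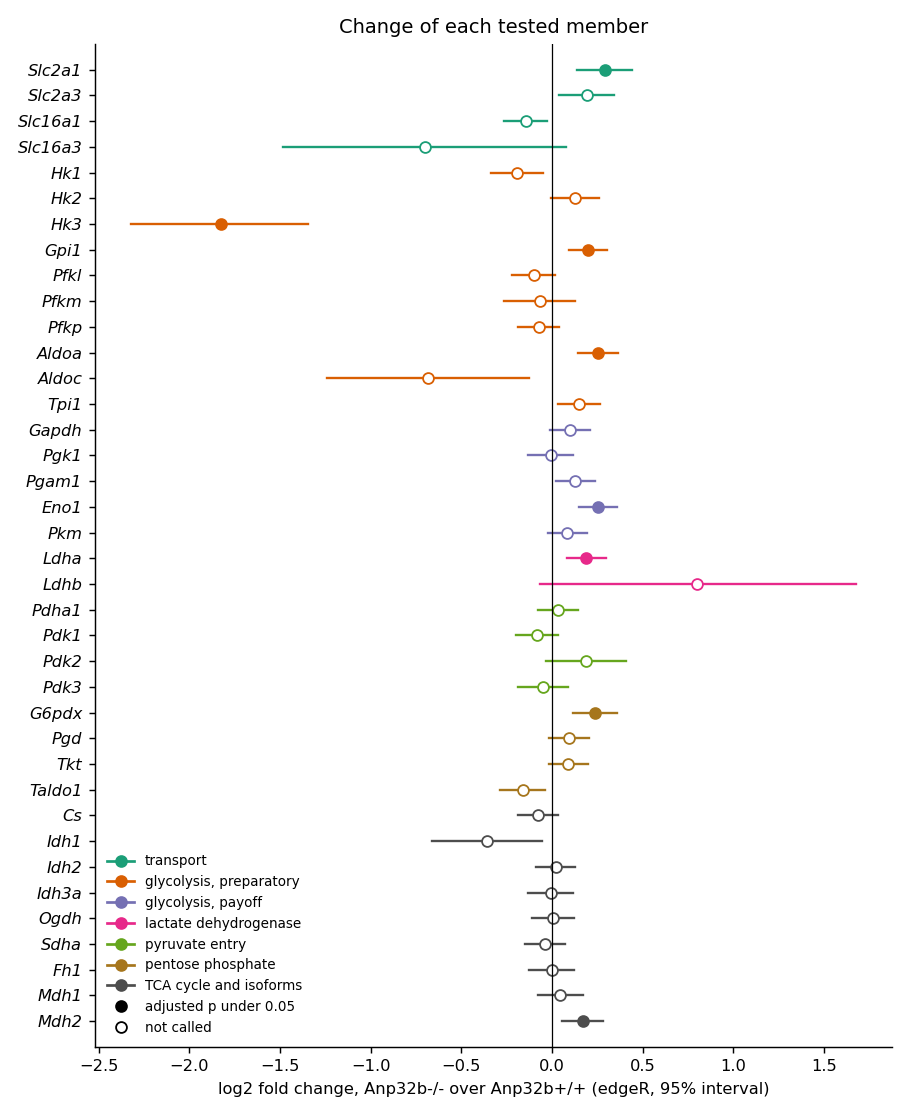
Log2 fold change of knockout over wild type for the 38 tested members with its 95% interval from edgeR, coloured by role, filled where the adjusted p was under 0.05. The 7 filled points right of 0 lie between 0.17 and 0.29, and Hk3 stands alone at -1.83.

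In RefSeq's GRCm38.p6 annotation the called genes lie on 5 chromosomes. Eno1 spans chr4:150236708-150248879 (+) and Slc2a1 chr4:119108745-119137330 (+). Chromosome 7 holds Aldoa at chr7:126795234-126800994 (-), Gpi1 at chr7:34201327-34230336 (-) and Ldha at chr7:46842274-46855627 (+). Mdh2 lies at chr5:135778649-135790386 (+), Hk3 at chr13:55005985-55021475 (-) and G6pdx at chrX:74409483-74428880 (-).

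The members are ranked by level here per length, as CPM per kilobase of the principal transcript. Level ranges and sums given below in CPM are not corrected for length. Gapdh led the set with 3950 CPM per kb in knockout and 3690 CPM per kb in wild type, and Eno1 followed with 1494 CPM per kb in knockout and 1251 CPM per kb in wild type. Ldha (1113 and 977) and Pkm (894 and 843) came next, each with its knockout mean first and its wild-type mean second in CPM per kb. The genotypes shared the order of the 15 highest members. At the bottom stood Hk3, Aldoc, Slc16a3, Ldhb and Eno2, isoform genes best known from myeloid cells, brain, muscle or heart, all below 1.5 CPM per kb in both genotypes. All members together made up 1.92% and 1.96% of the reads of the knockout libraries and 1.82% and 1.81% of those of the wild-type libraries.

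**Figure D2:**
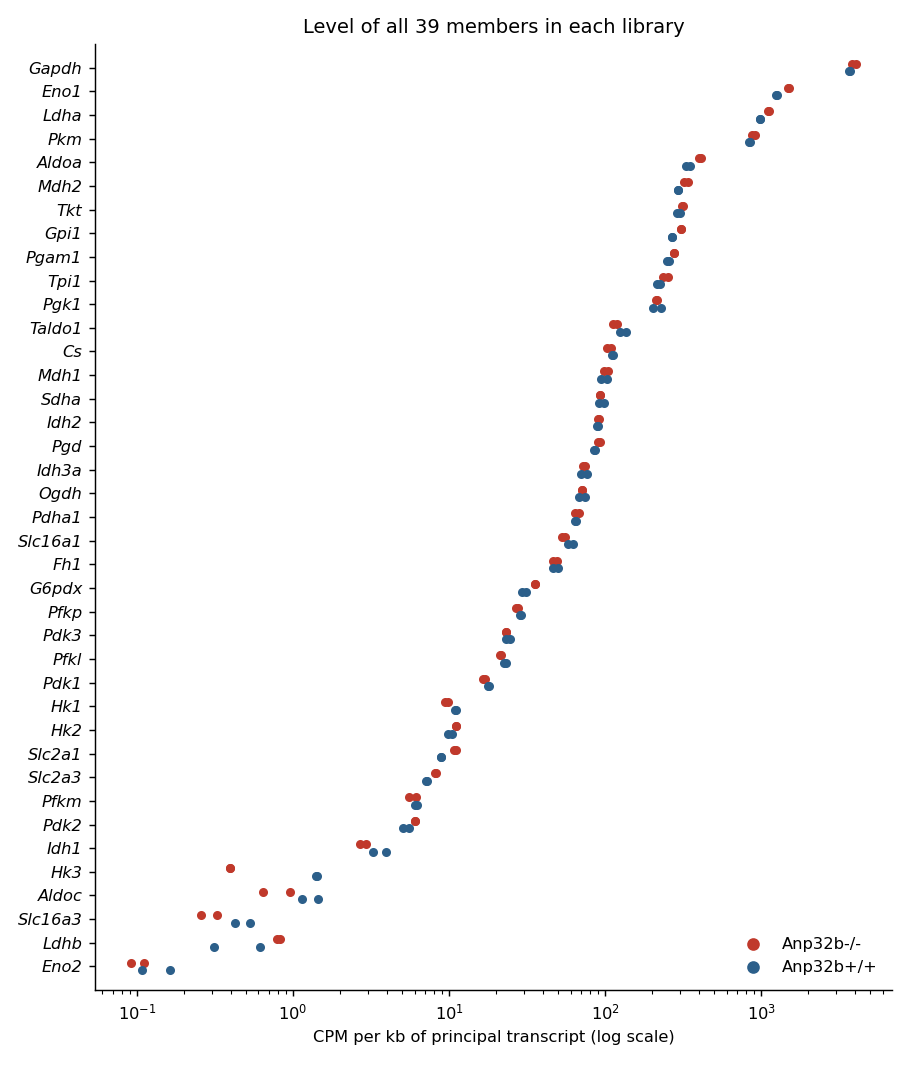
CPM per kilobase of principal transcript on a log scale for all 39 members, with 1 point per library and members ordered by their wild-type mean. Gapdh, Eno1, Ldha and Pkm stand at the top in both genotypes, and the knockout points of Hk3 lie far to the left of its wild-type points.

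Promoter sequence is shown for 3 of the members that rose together and for the member that fell, so that the motifs of known regulators can be read beside the changes. RefSeq windows (GRCm38.p6) of the 250 bases before a start were available for 37 of the 39 members. Both strands were searched for CACGTG, the E-box that MYC and MAX bind, and for ACGTG or GCGTG outside a CACGTG, the core letters of hypoxia response elements. In the first 3 sequences capitals mark these letters or their reverse complements. In the Hk3 sequence capitals mark GAGGAA or its reverse complement, core letters found in many sites of PU.1, the factor in the series title. All are written 5′ to 3′ on the strand of the gene, the Ldha window at chr7:46845554-46845803 (+), Slc2a1 at chr4:119108495-119108744 (+), Eno1 at chr4:150236458-150236707 (+) and Hk3 at chr13:55021386-55021635 (-). For Ldha and Hk3 the window precedes a start inside the annotated gene, and windows of their other starts are not shown.
Ldha: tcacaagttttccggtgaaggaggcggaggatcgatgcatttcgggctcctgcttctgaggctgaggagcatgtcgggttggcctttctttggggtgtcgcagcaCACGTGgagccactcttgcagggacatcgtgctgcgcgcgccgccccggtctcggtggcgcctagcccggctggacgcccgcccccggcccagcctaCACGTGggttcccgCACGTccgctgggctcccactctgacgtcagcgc
Slc2a1: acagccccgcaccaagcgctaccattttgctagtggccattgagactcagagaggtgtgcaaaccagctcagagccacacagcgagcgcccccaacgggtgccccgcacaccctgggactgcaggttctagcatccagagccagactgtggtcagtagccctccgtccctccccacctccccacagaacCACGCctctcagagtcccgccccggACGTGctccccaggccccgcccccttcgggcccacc
Eno1: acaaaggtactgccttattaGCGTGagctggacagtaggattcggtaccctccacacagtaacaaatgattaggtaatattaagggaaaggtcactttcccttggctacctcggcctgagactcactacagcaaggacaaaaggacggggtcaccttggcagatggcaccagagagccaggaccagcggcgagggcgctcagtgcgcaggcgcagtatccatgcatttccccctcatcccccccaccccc
Hk3: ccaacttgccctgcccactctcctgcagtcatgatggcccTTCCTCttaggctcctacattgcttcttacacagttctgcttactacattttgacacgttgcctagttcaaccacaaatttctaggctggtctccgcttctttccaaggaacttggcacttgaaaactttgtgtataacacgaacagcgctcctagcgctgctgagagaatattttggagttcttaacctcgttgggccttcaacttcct
Of the 7 members that rose, 1 had a CACGTG in its window, Ldha with 2 copies, and of the 28 members with a window that were not called 3 had it (10.7%). The share was 8.29% over all windows of tested genes and 6.02% over all 32851 windows. ACGTG or GCGTG was found for 6 of the 7 that rose (85.7%) and for 21 of the 28 not called (75%), where 51.5% of the windows of tested genes held it. Hk3, which fell, held it too. GAGGAA was found for 0 of the 7 that rose, for 3 of the 28 not called (10.7%) and for Hk3, where 22.4% of the windows of tested genes held it. Members were counted by 1 window each, but tested genes by all their windows (12473 windows of 9799 symbols). GC content was not matched either, so these shares are not like for like and show no enrichment. A match describes letters only and does not show binding.

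Among the transporters, Slc2a1, which encodes the glucose carrier GLUT1, had 35.8 and 35.1 CPM in knockout libraries, against 29.1 and 28.9 CPM in wild-type libraries. Both knockout libraries lay above both wild-type libraries. This was a log2 fold change of 0.29 (SE 0.07, 95% interval 0.14 to 0.44, edgeR adjusted p = 0.00801), and the call was not made by DESeq2 (adjusted p = 0.0828). Slc2a3, which encodes the related carrier GLUT3, had 32.2 and 32.4 CPM in knockout and 28.5 and 28.2 CPM in wild type. Its libraries did not overlap either, but it missed the threshold (0.19, SE 0.07, adjusted p = 0.0678). Slc16a1, which encodes the lactate carrier MCT1, had 246 and 234 CPM in knockout and 255 and 276 CPM in wild type. These groups lay apart without passing the test (log2 fold change -0.15, adjusted p = 0.0763), and Slc16a1 was called lower with upper-quartile normalization (adjusted p = 0.0363), with the 10 CPM filter (0.0429) and without wild-type replicate 1 (0.00174). Slc16a3, which encodes the lactate exporter MCT4 of glycolytic muscle, was scarce, with 12 and 15.1 reads in knockout and 25.3 and 20.1 reads in wild type, and was not called (-0.70, 95% interval -1.49 to 0.08).

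In the preparatory steps, which spend ATP to cleave the sugar, Gpi1 and Aldoa rose and Hk3 fell. Gpi1, glucose-6-phosphate isomerase, had 882 and 884 CPM in knockout, against 769 and 769 CPM in wild type. The replicates nearly coincided and the groups lay clearly apart, with a log2 fold change of 0.20 (SE 0.05, 95% interval 0.09 to 0.31, edgeR adjusted p = 0.00891). Aldoa, the main aldolase of most tissues, had 581 and 599 CPM in knockout, against 507 and 482 CPM in wild type. Both knockout values were again the higher ones (0.25, SE 0.05, 95% interval 0.14 to 0.37, edgeR adjusted p = 0.00255). Aldoc, the aldolase gene of brain, had 42 and 28 reads in knockout and 51 and 64 reads in wild type, and was not called (-0.68, adjusted p = 0.0734), though it was without wild-type replicate 1 (0.0418). Tpi1, triose phosphate isomerase, had 377 and 405 CPM in knockout and 345 and 360 CPM in wild type, apart but short of the threshold (0.15, adjusted p = 0.0628), which it passed without wild-type replicate 2 (0.0121).

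Of the 3 hexokinase genes, whose products trap glucose as its phosphate, Hk3 alone was called. Hk3 had 24 and 24 reads (1.23 and 1.24 CPM) in knockout libraries, against 88 and 87 reads (4.42 and 4.39 CPM) in wild-type libraries. Its replicates coincided, and the knockout level was 0.282 of the wild-type level (log2 fold change -1.83, SE 0.23, 95% interval -2.32 to -1.35, edgeR adjusted p = 3.49e-05), a call made in each of the 10 other settings that tested it. The summed neutrophil markers were at 0.199 and the summed monocyte and macrophage markers at 0.40 of their wild-type level in the same libraries. Of the 14 tested neutrophil markers 13 fell and none rose, and of the 8 tested monocyte and macrophage markers 4 fell and none rose. Their part in the fall of Hk3 was not tested. Hk1, the widely expressed hexokinase gene, had 35.2 and 36.8 CPM in knockout and 41.7 and 40.6 CPM in wild type. Hk2, the inducible hexokinase gene, had 60.98 and 61.14 CPM in knockout and 57.6 and 54.3 CPM in wild type. The libraries of either gene did not overlap, but neither was called (Hk1 -0.19, adjusted p = 0.0535, and Hk2 0.13, adjusted p = 0.158). Hk1 was called lower with upper-quartile normalization (adjusted p = 0.0275), with the 10 CPM filter (0.0363) and without wild-type replicate 2 (0.0459).

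Phosphofructokinase commits the sugar to glycolysis and is the step most tightly controlled by energy state. Its liver-type gene Pfkl had 80.2 and 78.6 CPM in knockout and 86.3 and 84.2 CPM in wild type. The platelet-type gene Pfkp had 115 and 111 CPM in knockout and 119 and 119 CPM in wild type. Both lay slightly lower in knockout without overlap, and the muscle-type gene Pfkm overlapped at 15.6 and 17.2 CPM in knockout against 17.1 and 17.4 CPM in wild type. None of the 3 was called. Their log2 fold changes were -0.10 for Pfkl (95% interval -0.22 to 0.02), -0.07 for Pfkp (-0.19 to 0.04) and -0.07 for Pfkm (-0.27 to 0.13).

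The payoff steps, which yield ATP and pyruvate, held the most abundant transcripts of the set, and Eno1 rose there. Eno1, the enolase gene of most tissues, had 3008 and 3048 CPM in knockout libraries, against 2534 and 2539 CPM in wild-type libraries. Knockout lay above wild type by far more than the gap between replicates (log2 fold change 0.26, SE 0.05, 95% interval 0.15 to 0.36, edgeR adjusted p = 0.00155). At a mean level of 1000 CPM or more stood 117 tested genes, of which 17 were called higher and 5 lower, with a median log2 fold change of 0.06. By log2 fold change Eno1 ranked 4, Ldha 10, Gapdh 37 and Pkm 45 among the 117. These ranks use the same fold changes as the calls and are no separate support. Gapdh had 5167 and 5465 CPM in knockout and 4998 and 4936 CPM in wild type. Pkm, the pyruvate kinase gene whose spliced forms cannot be told apart in gene counts, had 2131 and 2216 CPM in knockout and 2070 and 2029 CPM in wild type. Both genes were higher in both knockout libraries, by too little to be called (Gapdh 0.10, adjusted p = 0.191, and Pkm 0.08, adjusted p = 0.254). Pgam1, phosphoglycerate mutase, was at 489 and 489 CPM in knockout and 441 and 455 CPM in wild type, and was not called (0.13, adjusted p = 0.0837), though it was without wild-type replicate 2 (0.0158). Pgk1, phosphoglycerate kinase, overlapped fully, with 387 and 394 CPM in knockout and 372 and 413 CPM in wild type (-0.0068, 95% interval -0.13 to 0.12). Eno2, the neuronal enolase gene, had 4.99 and 5.57 reads in knockout and 8.89 and 6 reads in wild type and was left untested.

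Deposited counts of 16 members were not whole (within 0.005 reads) in at least 1 library, Eno1, Aldoa, Gapdh and Gpi1 among them, while those of the other 23, such as Ldha, Pkm and Mdh2, were whole. Gapdh, Eno1 and Aldoa have many near-identical processed copies in the mouse genome, so reads may have been shared with them and their values carry that uncertainty. The copies listed under the symbols Eno1b, Aldoart1 and Aldoart2 held at most 6.76, 10.9 and 2 reads in a library.

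At the branch to lactate, Ldha rose. Ldha, the muscle-type subunit gene of lactate dehydrogenase, had 1843 and 1892 CPM in knockout libraries, against 1639 and 1637 CPM in wild-type libraries. Its replicates were close and the groups separate (log2 fold change 0.19, SE 0.05, 95% interval 0.08 to 0.29, edgeR adjusted p = 0.0127). Ldhb, the heart-type subunit gene, was nearly silent, with 21 and 20 reads in knockout and 16 and 8 reads in wild type, and its difference was not resolved at this depth (0.80, 95% interval -0.06 to 1.68).

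**Figure D3:**
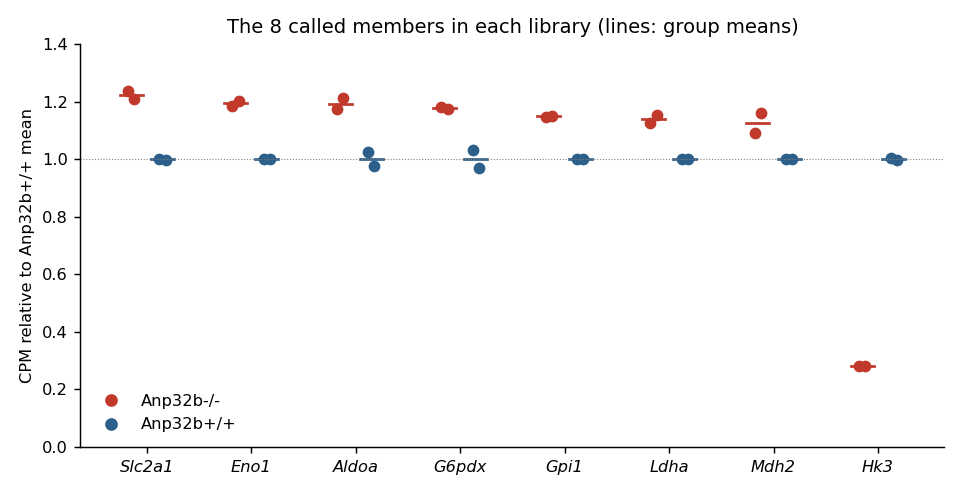
CPM of the 8 called members in each library, divided by the member's wild-type mean, with 1 point per library and a line at each group mean. The knockout points of the 7 higher members lie above all wild-type points, and those of Hk3 lie near 0.28.

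No gene of pyruvate entry into the mitochondrion was called. Pdha1, a catalytic subunit gene of pyruvate dehydrogenase, had 192 and 184 CPM in knockout and 183 and 185 CPM in wild type, which overlapped (0.03, 95% interval -0.08 to 0.14). The kinase genes Pdk1, Pdk2 and Pdk3, whose products switch the dehydrogenase off, had log2 fold changes of -0.08 (95% interval -0.20 to 0.03), 0.19 (-0.03 to 0.41) and -0.05 (-0.19 to 0.09). Per kilobase, Pdk3 was the most abundant of the 3 kinase genes, at 23.0 CPM per kb in knockout and 23.8 CPM per kb in wild type, ahead of Pdk1 (16.8 in knockout and 17.8 in wild type) and Pdk2 (6.02 in knockout and 5.29 in wild type).

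In the pentose phosphate pathway, G6pdx rose and the other members were not called. G6pdx encodes glucose-6-phosphate dehydrogenase, the gatekeeper of the oxidative branch, and had 94.8 and 94.3 CPM in knockout libraries, against 82.8 and 77.9 CPM in wild-type libraries. Both knockout values were higher than both wild-type values (log2 fold change 0.24, SE 0.06, 95% interval 0.11 to 0.36, edgeR adjusted p = 0.00738). The call was not made with no filter on low counts (adjusted p = 0.0595). G6pdx lies on the X chromosome together with Pdk3, Pgk1 and Pdha1. Of these 4 members 1 was called, near the 23.6% of all tested genes called in either direction. The 4 together summed to 722 and 721 CPM in knockout and 686 and 728 CPM in wild type. The Y-linked genes differed between the same libraries, as given above, and their part in the level of G6pdx was not tested. Pgd, the dehydrogenase gene of the next oxidative reaction, had 206 and 198 CPM in knockout and 191 and 188 CPM in wild type (0.09, adjusted p = 0.217). The non-oxidative branch pointed in different directions without a call. Tkt, transketolase, had 994 and 1022 CPM in knockout and 966 and 928 CPM in wild type (0.09, adjusted p = 0.233). Taldo1, transaldolase, had 139 and 147 CPM in knockout and 153 and 166 CPM in wild type (-0.16, adjusted p = 0.0573). Taldo1 was called lower with upper-quartile normalization (adjusted p = 0.0266), with the 10 CPM filter (0.032) and without wild-type replicate 1 (0.00177), and Tkt was called higher without wild-type replicate 1 (0.0353).

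Of the 9 genes of the TCA cycle and its isoforms, 1 rose and 8 were not called, where 10.9% of all tested genes were called higher. The count is thus near the share of all genes. Mdh2, mitochondrial malate dehydrogenase, had 467 and 498 CPM in knockout libraries, against 429 and 428 CPM in wild-type libraries. Its knockout libraries lay above both wild-type libraries and farther from each other than the wild-type libraries did (log2 fold change 0.17, SE 0.05, 95% interval 0.06 to 0.28, edgeR adjusted p = 0.0305). Of the 7 it was called in the fewest settings: upper-quartile normalization (adjusted p = 0.069), no filter (0.101) and the 10 CPM filter (0.0502) each ended the call. The cytosolic Mdh1 had 209.9 and 221 CPM in knockout and 199 and 218 CPM in wild type and overlapped (0.05, 95% interval -0.08 to 0.17).

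The remaining TCA members, apart from the scarce Idh1, differed little. Cs, citrate synthase, had 302 and 317 CPM in knockout and 328 and 324 CPM in wild type (-0.08, 95% interval -0.19 to 0.03). Fh1, fumarase, had 122.68 and 130.02 CPM in knockout and 122 and 132 CPM in wild type (-0.0022, 95% interval -0.13 to 0.12). Ogdh, a subunit gene of the 2-oxoglutarate dehydrogenase complex, had 293 and 293 CPM in knockout and 305 and 279.9 CPM in wild type (0.0040, 95% interval -0.11 to 0.12). For each of these genes the whole interval lay within 0.2 of 0 on the log2 scale. Idh3a and Sdha, subunit genes of the NAD-linked isocitrate dehydrogenase and of succinate dehydrogenase, had log2 fold changes of -0.0065 (95% interval -0.13 to 0.12) and -0.04 (-0.15 to 0.07). Idh2, the mitochondrial NADP-linked isocitrate dehydrogenase gene, was at 156 and 159 CPM in knockout and 156 and 155 CPM in wild type (0.02, 95% interval -0.09 to 0.13). Its cytosolic relative Idh1 was scarce, at 6.16 and 6.71 CPM in knockout and 7.48 and 9.03 CPM in wild type, without overlap and without a call (-0.36, adjusted p = 0.0816). Idh1 was called lower without wild-type replicate 1 (adjusted p = 0.0229).

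Summed over the members of a role, CPM in knockout stood at 1.12 times wild type for the preparatory steps, 1.10 for the payoff steps, 1.14 for lactate dehydrogenase and 1.05 for the pentose phosphate genes. The corresponding ratio was 1.02 for the TCA genes, 0.997 for pyruvate entry and 0.952 for transport. These sums are carried by the most abundant members, since Gapdh alone made up much of the payoff sum, and the glycolytic genes without Gapdh summed to 8165 and 8343 CPM in knockout and 7365 and 7371 CPM in wild type. With upper-quartile normalization the log2 ratio of the TCA sums turned to -0.0041.

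Most members averaging 300 CPM or more lay higher in knockout. Of these 12, 10 had a positive log2 fold change, 5 were called higher (41.7%) and 0 lower (edgeR), with a median of 0.14. Among all 576 tested genes of that level 63.2% were positive, 14.9% were called higher and 6.77% lower, with a median of 0.04. Of the 11 members between 100 and 300 CPM none was called, where 15% of the 1717 tested genes of that level were called higher and 8.68% lower. Of the 8 members between 20 and 100 CPM, G6pdx and Slc2a1 were called higher (25%) and 0 lower (edgeR), where 12.9% of the tested genes of that level were called higher and 10% lower. Of the 7 members below 20 CPM, 2 were positive and Hk3 was called lower (14.3%). Among all tested genes of that level 41.2% were positive, 7.26% were called higher and 17.1% lower, so this count is near the share of all genes. These level ranges were chosen after the values were seen.

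**Figure D4:**
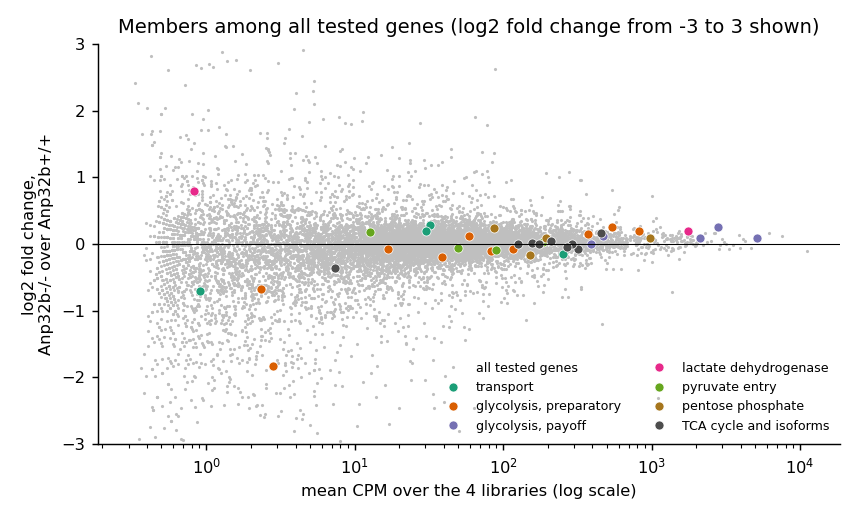
Log2 fold change of knockout over wild type against mean CPM (log scale) for all tested genes in grey and the 38 tested members in colour by role, with 62 genes outside the plotted range of -3 to 3. The members at the right, above 300 CPM, lie mostly above 0, and Hk3 is the low point near 3 CPM.

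Within a library, the ratio of isoenzyme genes of the same step shows their balance without any library scaling. The Hk1 to Hk2 count ratio was 0.577 and 0.602 in knockout libraries, against 0.724 and 0.748 in wild-type libraries. It was lower in both knockout libraries, by 0.32 on the log2 scale, with a spread between replicates of 0.04 (SD). Per kilobase, Hk2 stood above Hk1 in knockout (11.1 and 9.61 CPM per kb) and Hk1 above Hk2 in wild type (10.99 and 10.14 CPM per kb). This order rests on the annotated lengths used, 3745 bases for Hk1 and 5513 bases for Hk2. Neither gene was called, so no change of the leading hexokinase gene is shown. The Pdk1 to Pdk2 ratio was 6.34 and 6.56 in knockout, against 7.49 and 8.12 in wild type, and the Slc2a1 to Slc2a3 ratio 1.11 and 1.08 in knockout, against 1.02 and 1.03 in wild type. The Pfkl to Pfkp ratio overlapped, at 0.697 and 0.71 in knockout and 0.728 and 0.708 in wild type. The ratios are a description, with no test run on them, and an exact two-sided permutation test of 2 against 2 libraries reaches at lowest p = 0.33. The Mdh1 to Mdh2 ratio was 0.45 and 0.443 in knockout, against 0.463 and 0.51 in wild type. The remaining pairs, such as Ldha to Ldhb, rest on a scarce partner. Pfkl to Pfkp was the only listed pair whose libraries overlapped, so a lack of overlap was common among the pairs.

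**Figure D5:**
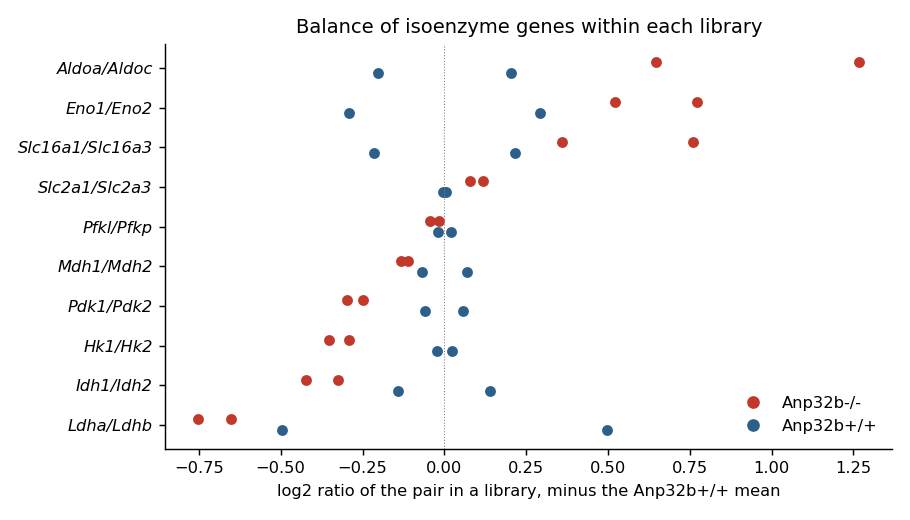
Log2 ratio of the counts of 10 pairs of isoenzyme genes in each library, minus the wild-type mean of the pair, with 1 point per library. Hk1/Hk2, Pdk1/Pdk2 and Mdh1/Mdh2 lie lower in both knockout libraries, Pfkl/Pfkp overlaps, and the pairs with a scarce partner spread widely.

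Of the 74 listed remaining genes of these pathways, 67 were present in the files and 57 were tested. Of the 57, 4 were called higher and 6 lower, with a median log2 fold change of 0.02. Over all tested genes 10.9% were called higher and 12.6% lower. The counts of the single lists below are to be read beside these shares. Of the 18 tested other glycolysis and gluconeogenesis genes, 1 rose and 3 fell. G6pc3, a widely expressed glucose-6-phosphatase gene, had 65.7 and 66.2 CPM in knockout, against 53.0 and 49.5 CPM in wild type (log2 fold change 0.36, SE 0.06, edgeR adjusted p = 0.000625). Pck2, mitochondrial PEP carboxykinase, fell (-0.28, adjusted p = 0.00299), as did Pfkfb4, which makes and breaks the phosphofructokinase activator fructose 2,6-bisphosphate (-1.14, adjusted p = 0.00324). The sugar transporter gene Slc2a6, named after its values were seen as the remaining call, had 11 and 1 reads in knockout and 35 and 27 reads in wild type.

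Of the 8 tested other pentose phosphate genes 2 rose and 1 fell. Pgls, which encodes the lactonase that follows G6pdx, had 403 and 408 CPM in knockout, against 356 and 334 CPM in wild type, so the first and the next gene of the oxidative branch were both higher (0.23, SE 0.05, edgeR adjusted p = 0.00489). Prps1, whose product turns ribose 5-phosphate into the nucleotide precursor PRPP, rose by 0.20 (adjusted p = 0.0143), and Rpia, the ribose 5-phosphate isomerase gene, fell (-0.22, adjusted p = 0.0112). Of the 22 tested other TCA genes, Idh3g rose (0.18, adjusted p = 0.0175), while Sdhaf2, an assembly factor gene of succinate dehydrogenase (-0.20, adjusted p = 0.0254), and Slc25a12, a mitochondrial aspartate-glutamate carrier gene (-0.29, adjusted p = 0.00884), fell. None of the 9 tested other pyruvate entry genes was called by edgeR. Pdhb, which had the highest CPM of them, overlapped between the groups, with 121 and 125 CPM in knockout and 121 and 132 CPM in wild type.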

How the data were processed

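The authors deposited, per the file headers, 1 table of read counts per library by gene symbol. The deposited values are estimated counts (expected counts) with decimals, unscaled, of which 64.5% to 65.6% are whole within 0.005 reads in a library. GRCm38, HISAT2 2.0.4 and DESeq2 1.4.5 appear, without roles, in the submitters' processing notes. Not given in the sources used here are the counting tool, annotation, strand setting and filters, so reads of overlapping or near-identical genes may have been shared out. Counts were rounded and fitted for all genes with edgeR 4.0.16 in R 4.3.3 (quasi-likelihood test, TMM, filterByExpr with a minimum count of 10, no covariate, Benjamini-Hochberg adjustment over 12123 tested symbols, called at an adjusted p under 0.05). Intervals are 95%. The procedure was tested on simulated counts with larger changes than the called rises and equal spread in both groups. That test does not speak for rises of the size found here. No 2 libraries were identical: chi-square per degree of freedom was 2.09 between the knockout libraries, 5.29 between the wild-type libraries and 18.4 to 19.7 between genotypes. Totals of 19581575 to 19758671 limit scarce genes, since 3 reads equal 0.152 to 0.153 CPM. Of the symbols, 99.6% matched RefSeq GRCm38.p6, and transcript lengths are the median over GENCODE M21 principal transcripts. The members and lists were chosen with earlier results of these data known. All members are named, with, in each further pathway list, up to 3 called genes of smallest p or the most abundant gene where none was called. Alternatives were DESeq2 1.42.0, limma-voom (limma 3.58.1), other normalizations and filters, a replicate block and leaving out each library.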

Additional observations from a re-analysis of the deposited data

How the results depend on the processing

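Over 11 other settings for each of the 7 higher members, 58 of 77 values were called and 77 were positive. Counts of members called higher ran from 0 to 9 over the fits that leave out a library, and those called lower from 1 to 5. The adjusted p of the 7 higher members reached 0.434 (Mdh2 without knockout replicate 2). At a fold of at least 1.5, 0 members were called higher and Hk3 lower. Members called lower were 4 with upper-quartile normalization, 3 with the 10 CPM filter and 5 with the replicate block. Over all genes 1767 of 12123, 1074 of 8576 and 1779 of 12123 were called lower in these settings. Among all genes the calls were 1323 higher and 1533 lower, 547 and 744 with no filter, 729 and 847 with DESeq2, and over the leave-outs from 372 to 1676 higher and from 579 to 1712 lower. Deviations of same-numbered libraries correlated at 0.0849 over 8454 genes, so the numbers were not taken as pairs. With the block, all-gene calls were 1644 higher and 1779 lower, and members called were 9 higher and 5 lower, adding Slc2a3 (adjusted p = 0.0499), Tpi1 (0.0266), Slc16a1 (0.0366), Hk1 (0.0321), Taldo1 (0.0162) and Aldoc (0.0461). The log2 ratios of the role sums fell with upper-quartile normalization, to 0.13 for the preparatory steps, 0.10 for the payoff steps, 0.16 for lactate dehydrogenase, 0.04 for the pentose phosphate genes and -0.035 for pyruvate entry. That choice for the sums was added after seeing the data. The sign of values near 0 changed for the members' median (-0.0036), Idh2 (-0.0105) and Ogdh (-0.026) with upper-quartile normalization, for Ogdh (-0.015) with the 10 CPM filter and for Fh1 (0.0016) with no filter. When 1 library was left out, Pfkm ran from -0.142 to 0.0041, Pgk1 from -0.0807 to 0.0683, Fh1 from -0.0579 to 0.0527, Idh3a from -0.0738 to 0.0612, Ogdh from -0.0593 to 0.0670, Sdha from -0.0840 to 0.0046 and Mdh1 from -0.0197 to 0.11, all log2 fold changes. The cause of these changes was not tested. The isoenzyme ratios changed by less than their replicate spread with a prior count of 2.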

Other observations

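Genes induced by low oxygen, a list that shares regulators with glycolysis, were mixed. Of 13 tested, 2 rose and 2 fell, with a median log2 fold change of 0.07. Ndrg1, a stress-induced gene, had 26.7 and 26.8 CPM in knockout libraries, against 14.7 and 11.7 CPM in wild-type libraries (log2 fold change 1.02, SE 0.10, edgeR adjusted p = 4.10e-06). Egln1, which encodes an oxygen-sensing hydroxylase that marks HIF-1 alpha for destruction, had 84.0 and 84.3 CPM in knockout and 72.8 and 69.1 CPM in wild type (0.25, adjusted p = 0.00603). Bnip3, a mitophagy gene, fell, with 19.66 and 19.78 CPM in knockout and 26.9 and 25.6 CPM in wild type (-0.41, adjusted p = 0.00159). P4ha1, named after its values were seen as the remaining call, fell too (-0.32, adjusted p = 0.0106). Hif1a itself overlapped between the groups, at 91.8 and 91.8 CPM in knockout and 94.7 and 87.8 CPM in wild type.

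Mycn, the driver of this leukaemia, had 944 and 921 CPM in knockout libraries and 1013 and 857 CPM in wild-type libraries, and was not called (edgeR adjusted p = 0.978). Its relative Myc had 35.2 and 33.6 CPM in knockout libraries, against 86.7 and 79.3 CPM in wild-type libraries (log2 fold change -1.27, adjusted p = 8.90e-09). Myc fell in the libraries in which Ldha, Eno1 and Aldoa rose. The relation of these genes was not tested.

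None of the 11 tested erythroid markers was called (edgeR), and their sum was 245 and 249 CPM in knockout and 217 and 235 CPM in wild type. Of the 5 tested NK cell markers 2 were called lower and 0 higher, with a median log2 fold change of -1.73. The NK list was scarce, with sums of 2.26 and 2.63 CPM in knockout and 7.18 and 8.62 CPM in wild type. Of the 6 tested T cell markers 2 were called higher and 2 lower, with a median log2 fold change of -0.33. Over all tested genes 10.9% were called higher and 12.6% lower. The T cell genes Cd3d and Cd3e were at or below 5.03 reads in every library, while Lat, an adaptor gene of T cell receptor signalling, rose to 75.9 and 70.4 CPM in knockout, against 35.0 and 38.4 CPM in wild type. Zap70, a kinase gene of the same pathway, rose too (0.53), while Cd4 (-1.61) and Lck (-0.39) fell. Of the 5 tested plasma cell markers 1 was called higher and 3 lower, and the list's sum in knockout was 0.88 of that in wild type. Jchain, a gene of plasma cells, had 9.24 and 9.55 CPM in knockout, against 33.5 and 43.5 CPM in wild type (-2.03, adjusted p = 2.39e-08). Irf4 (-0.30) and Prdm1 (-1.45), transcription factor genes of plasma cell differentiation, fell as well, Xbp1 rose (0.19) and Sdc1 was not called (-0.08).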
